A study of Mus musculus with 13 samples.

Results

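R-loops in N2a mouse neuroblastoma cells were compared between libraries labelled siDDX1 and libraries labelled siScramble, neither digested with RNase H. The members were the 3 untreated libraries titled siDDX1 and the 3 untreated libraries titled siScramble, 6 of the 13 samples of the series. Signal was measured by DRIP-seq, in which DNA cut with a mix of restriction enzymes (XbaI, SspI, HindIII, EcoRI and BsrGI) is pulled down with S9.6, an antibody that binds RNA-DNA hybrids. Per the study's text, cells of 1 line were transfected with siRNA against Ddx1 or with a commercial scramble siRNA, and its methods give 3 plates per condition. Both groups thus share the cell line, the transfection and the digest, and they differ by the siRNA. The sequence and number of siRNAs against Ddx1 are not given in the sources used here.

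An R-loop forms when RNA pairs with a DNA strand of the duplex and leaves the other DNA strand single. R-loops arise during transcription, often near promoters and in G-rich sequence, and are removed by RNase H enzymes and by helicases that unwind the hybrid. DDX1 is a DEAD-box protein of the tRNA ligase complex that has been linked to R-loops. The comparison asks which R-loop regions differ after its depletion. DRIP libraries do not measure Ddx1 RNA or protein, so they do not check the knockdown.

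Titles and peak names disagreed. In 12 of 12 peak lists the peak names carried another treatment than the title, always in the same rotation. By title, this is a comparison of siDDX1 with siScramble. By peak name, the libraries titled siDDX1 hold siEXOSC3 and the libraries titled siScramble hold siDDX1, so the comparison would be siEXOSC3 against siDDX1 and would contain no control. EXOSC3 belongs to the RNA exosome, the complex that degrades RNA from its 3′ end. All directions below are by title.

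The 6 lists held from 23882 to 42170 peaks. Fold enrichment is the caller's ratio of signal at a peak's summit to the local background, and with the p-value it gave back the number of fragments stacked at the summit, in whole fragments for 81.0% to 100% of peaks. The median summit held 9 to 12 fragments. The background depth lay between 0.544 and 0.706 fragments per position in 5 libraries and at 1.29 in siDDX1 replicate 1, which is 2.06 times the median of the others. Of genes that mark sympathetic neuroblastoma, 4 of 14 carried a peak at their start in all 6 libraries, namely Hand2, Gata2, Phox2a and Tubb3. In the 6 libraries 8 of the 14 carried none, among them Mycn, Th and Dbh. None of 7 fibroblast and none of 6 blood markers had a peak at the start in any of the 6 libraries. Of all protein-coding genes, 15.7% had a start peak in all 6 libraries and 64.0% in none. Counts over such short lists do not identify the cells.

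The stretches below show the DNA behind the results, read from mm9 on the plus strand, with runs of at least 4 G or C in capitals. The first pair is the top of the regions within genes called only in siDDX1, the second pair the top of those called only in siScramble, and the last pair lies in the regions called in all 6 libraries with the smallest p in each direction. Each stretch holds the 300 bases around the highest summit as far as they lie within the region, so those of Ppap2a and Eya4 stop at an end of their region, with 152 and 295 bases.
Sipa1l2, chr8:127966701-127967000: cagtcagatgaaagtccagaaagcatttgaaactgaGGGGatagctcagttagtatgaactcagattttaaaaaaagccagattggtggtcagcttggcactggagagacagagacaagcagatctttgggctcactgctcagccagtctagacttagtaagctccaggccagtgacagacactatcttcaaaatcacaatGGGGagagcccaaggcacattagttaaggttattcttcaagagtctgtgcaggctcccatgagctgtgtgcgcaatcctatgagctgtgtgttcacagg
Ppap2a, chr13:113653719-113653870: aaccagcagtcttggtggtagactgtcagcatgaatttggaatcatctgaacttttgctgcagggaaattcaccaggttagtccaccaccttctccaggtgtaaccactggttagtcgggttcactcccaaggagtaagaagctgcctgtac
Eya4, chr10:23053777-23054071: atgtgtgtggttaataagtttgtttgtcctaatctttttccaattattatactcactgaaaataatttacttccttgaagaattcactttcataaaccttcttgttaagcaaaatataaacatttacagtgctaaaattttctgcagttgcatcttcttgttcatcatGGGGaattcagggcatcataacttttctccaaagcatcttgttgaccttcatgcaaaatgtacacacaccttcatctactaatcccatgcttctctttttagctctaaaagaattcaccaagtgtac
Hcfc1, chrX:71208669-71208968: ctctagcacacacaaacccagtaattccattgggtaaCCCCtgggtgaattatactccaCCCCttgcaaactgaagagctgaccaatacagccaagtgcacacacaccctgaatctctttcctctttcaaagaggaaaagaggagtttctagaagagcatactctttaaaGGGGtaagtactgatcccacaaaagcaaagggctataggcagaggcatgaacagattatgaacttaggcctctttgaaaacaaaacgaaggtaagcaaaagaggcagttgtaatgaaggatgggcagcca
H2-D1, chr17:35401341-35401640: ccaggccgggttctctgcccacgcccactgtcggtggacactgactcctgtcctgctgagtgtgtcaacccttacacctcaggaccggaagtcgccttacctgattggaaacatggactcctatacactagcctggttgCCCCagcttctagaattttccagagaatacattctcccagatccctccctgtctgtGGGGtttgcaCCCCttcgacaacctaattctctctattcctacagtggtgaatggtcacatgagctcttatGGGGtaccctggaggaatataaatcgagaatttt
Gm20388, chr8:124365482-124365781: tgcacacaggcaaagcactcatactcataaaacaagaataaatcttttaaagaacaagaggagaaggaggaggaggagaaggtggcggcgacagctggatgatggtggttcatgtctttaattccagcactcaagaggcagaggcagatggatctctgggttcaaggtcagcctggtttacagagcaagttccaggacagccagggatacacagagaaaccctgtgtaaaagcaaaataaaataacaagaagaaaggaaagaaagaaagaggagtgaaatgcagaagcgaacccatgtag
The stretches from Ppap2a and Gm20388 held no such run. A run of at least 4 G or C stood within the 300 bases around the summit in 79.9% of regions called only in siDDX1, in 80.1% of those called only in siScramble, in 82.2% of those called in all 6 and in 79.3% of all merged regions. The shares of the 4 sets thus lay close together.

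Peaks of the 6 libraries were merged into 61409 regions that cover 68.4 Mb. All 6 libraries called 8494 regions (13.8%). One library alone called 16253 regions in siScramble and 12988 in siDDX1, so single-library calls were the most frequent kind. Called in 3 of 3 siDDX1 libraries and in 0 of 3 siScramble libraries were 149 regions, 0.243% of all. The reverse, 3 of 3 siScramble and 0 of 3 siDDX1 libraries, held 311 regions, 0.506% of all. By this count more regions were one-sided in siScramble. With the same number of top peaks kept in each list the sets lay closer, with 292 regions in siScramble and 215 in siDDX1. The order turned without siDDX1 replicate 2, with 1070 regions in siDDX1 and 362 in siScramble, and without siDDX1 replicate 3, with 645 and 441. Without siScramble replicate 1 the order stayed, with 179 and 2187. Leaving out a library relaxes both rules, by 1 call or 1 absence, and both counts rose each time. The counts thus cannot show whether the order rests on single libraries. Replicate 2 of siDDX1 and replicate 1 of siScramble had the fewest peaks of their groups. A presence call has no test here.

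**Figure D1:**
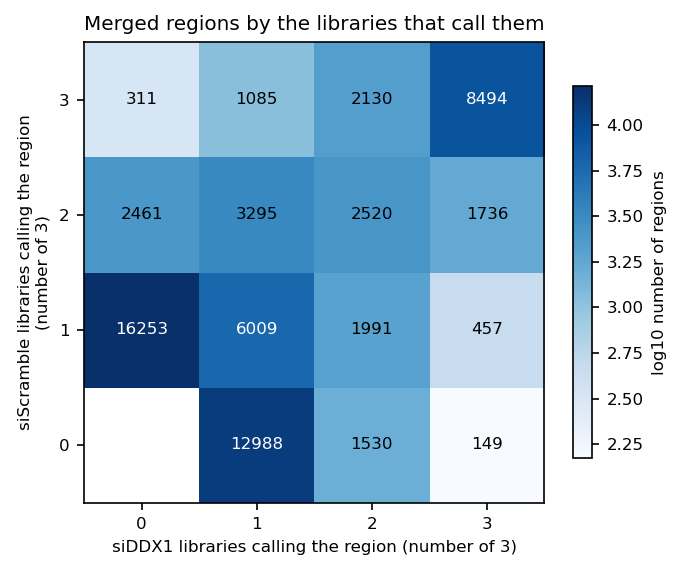
Number of merged regions by how many of 3 siScramble libraries (vertical axis) and how many of 3 siDDX1 libraries (horizontal axis) called them, with log10 of the number as shade. The corners hold 8494 regions called in all 6, 149 called only in siDDX1 and 311 called only in siScramble.

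The one-sided regions had lower signal than regions called in all 6, but lay close to all merged regions in fold and summit fragments. Their median width was 762 bases in siDDX1 and 827 bases in siScramble, against 3176 bases for regions called in all 6 and 538 for all merged regions. The median of their mean fold was 5.19 and 5.41, against 8.28 in regions called in all 6 and 5.06 in all merged regions. The median summit held 9 fragments in both one-sided sets, 15 in the regions called in all 6 and 10 in all merged regions. A peak of the other group lay within 1000 bases of 81 of the 149 siDDX1 regions (54.4%) and of 186 of the 311 siScramble regions (59.8%). With neighbouring peaks joined across gaps of up to 1000 bases, the siScramble set fell to 156 regions and the siDDX1 set to 113.

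The strongest regions called only in siDDX1, ranked by the lowest fold among the 3 calling libraries, lay mostly in introns. First was an intronic region of Sipa1l2, which encodes a GTPase-activating protein for Rap (chr8:127966050-127967263, minus strand gene), with folds of 12.2, 7.38 and 7.75 in siDDX1 replicates 1, 2 and 3. The summits held 27, 11 and 11 fragments. The nearest siScramble peak was 383 bases away. An intronic region of Ppap2a, a lipid phosphate phosphatase gene (chr13:113653556-113653870), had folds of 7.42, 6.15 and 7.77 in the 3 siDDX1 libraries, and no siScramble peak lay within 2046 bases. An intronic region of Syt7, which encodes a calcium sensor of vesicle release (chr19:10509164-10509724), had folds of 6.54, 6.15 and 6.48. Next in rank was a region 1.76 kb from Ints1, which encodes a subunit of the Integrator complex, with folds of 6.52, 5.87 and 5.96.

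The other 8 siDDX1 regions had folds between 5.24 and 8.73 in single libraries. They lay in introns of Apbb2, Pirt, Rps6kl1, Camk1d, Ppp6r3 and Sh2d3c, in an exon of Slc9a5 and at the start of Mfap1b. Camk1d encodes a calmodulin-dependent kinase, Slc9a5 a sodium-proton exchanger and Ppp6r3 a regulatory subunit of protein phosphatase 6. The Ppp6r3 region lay farthest from siScramble signal, with 23427 bases to the nearest siScramble peak. Its folds were 5.24, 5.53 and 7.77. Closest to a siScramble peak were the Rps6kl1 region, at 22 bases, and the region near Ints1, at 51 bases. Mfap1b has a near-identical neighbour, Mfap1a, and reads can be split between such copies. The folds at the Mfap1b start were 8.73, 5.53 and 7.12.

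The strongest regions called only in siScramble were ranked in the same way, from a set of 311 instead of 149. First was a region 301 kb from Ptprd, the nearest gene (chr4:78159147-78159638), with folds of 9.38, 8.67 and 9.04 in siScramble replicates 1, 2 and 3. An intronic region of Eya4, a transcriptional coactivator gene (chr10:23053771-23054071), had folds of 9.47, 7.36 and 9.18, and 1 of the 3 RNase H libraries also called it. The nearest siDDX1 peak was 259823 bases away from the first and 229021 bases from the second. An intronic region of Hcfc1, which encodes a regulator of transcription (chrX:71208544-71209272), had folds of 7.03, 8.05 and 7.20, with a siDDX1 peak 458 bases away. A region at the start of Ssrp1, a subunit of the histone chaperone FACT (chr2:84877385-84878517), had folds of 7.03, 6.81 and 7.23. The start of P2rx3, an ATP-gated channel gene, lies in the same region. The summit window there held 13 runs of G or C, the most of the 24 named one-sided regions.

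Single libraries gave the other 8 siScramble regions folds between 6.02 and 10.2. They lay in introns of Gtf3c2, Slit3, Snd1, Cpeb1 and Whsc1l1, in an exon of Slc38a2, and near Pias2 and Psma1. Gtf3c2 encodes a subunit of the RNA polymerase III factor TFIIIC, Slit3 a ligand of Robo receptors, Snd1 an RNA-binding nuclease and Cpeb1 a regulator of poly(A) tail length. Slit3 had folds of 6.45, 6.81 and 6.60, the narrowest spread among the siScramble regions named. Of the 24 named regions, 14 had a call on the other side once gaps of up to 1000 bases were bridged, among them Sipa1l2, Syt7, Hcfc1 and Slit3. The other 10 stayed one-sided. On the siDDX1 side these were only Ppap2a, Ppp6r3 and Sh2d3c. On the siScramble side they were Ptprd, Eya4, Ssrp1, Snd1, Pias2, Cpeb1 and Psma1.

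**Figure D2:**
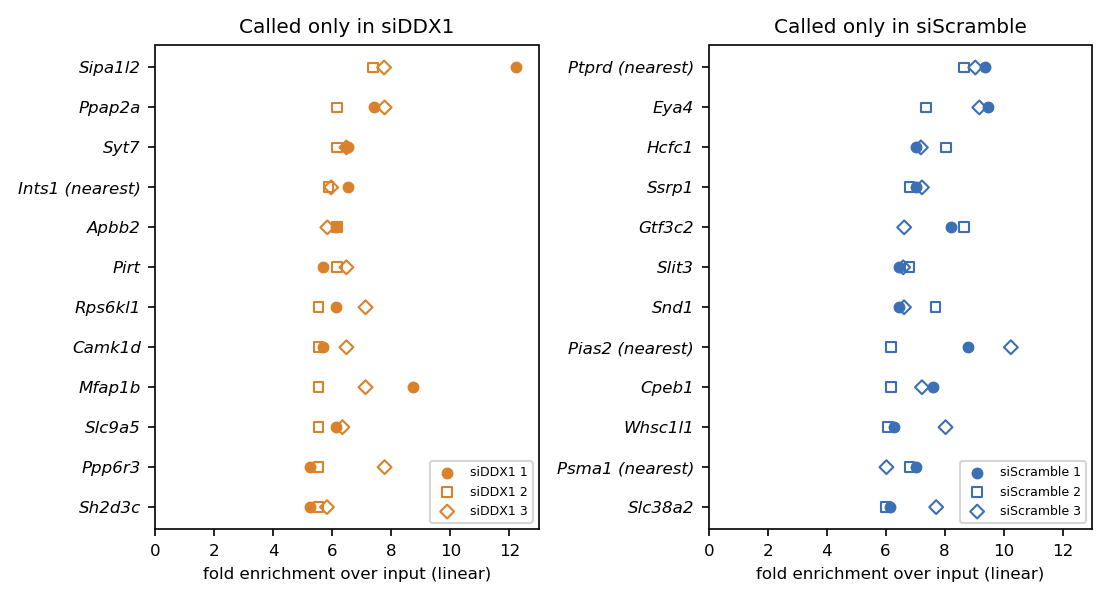
Fold enrichment over input (linear axis) of the 12 regions with the highest lowest fold among those called only in siDDX1 (left) and only in siScramble (right). Each point is 1 calling library, and the other 3 libraries have no peak there. Folds of siDDX1 regions lie between 5.24 and 12.2, those of siScramble regions between 6.02 and 10.2.

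Some genes carried one-sided regions of both kinds. Of 22380 protein-coding genes, 127 (0.567%) overlapped a region called only in siDDX1 and 249 (1.11%) one called only in siScramble, and 7 genes had both. They were 4933407C03Rik, Camk1d, Sipa1l2, Slc9a5, Tanc1, Vgll4 and Whsc1l1. Sipa1l2 held the strongest siDDX1 region and also 3 siScramble regions, whose mean folds were 6.77 ± 0.81, 5.34 ± 0.79 and 4.77 ± 1.12 (SD, n = 3). In Whsc1l1, a histone methyltransferase gene, a region near the start was called only in siDDX1, with folds of 4.63, 5.33 and 5.49. An intron of the same gene was called only in siScramble, with folds of 6.28, 6.09 and 8.03. More than 1 region on the siDDX1 side alone was found in Celf4, Creb3l2 and Isy1. On the siScramble side these were Adcyap1r1, Kdm3a, Nfs1, Npepps, Ruvbl1, Sipa1l2 and Snd1.

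At gene starts, within 1000 bases of an annotated transcription start, all 6 libraries had a peak at 3512 protein-coding genes (15.7%). Starts of all annotated transcripts of a gene counted, so a start peak can lie inside the gene or at its downstream end. Only the 3 siDDX1 libraries had a peak at the start of 24 genes (0.107%). These included the transcription factor genes Zeb1, Tbx6, E2f8 and Creb3l2, Coil, which encodes the Cajal body protein coilin, Isy1, a spliceosome component, and Fdps, an enzyme of isoprenoid synthesis. Only the 3 siScramble libraries had one at 28 genes (0.125%). Among these were the transcription factor genes Nr2f2 and Tbx2, Tpx2, a spindle assembly factor, Srp19, a subunit of the signal recognition particle, and Papolg, a poly(A) polymerase. The 2 sets were close in size. Mfap1b, Whsc1l1 and Ssrp1, named above for a one-sided region near the start, were in neither set.

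Introns held the largest share of regions on both sides. By midpoint, 17.4% of the siDDX1-only regions lay near a start (Wilson 95% interval 12.2 to 24.3), 10.1% in exons, 58.4% in introns (50.4 to 66.0) and 14.1% outside genes (9.41 to 20.6). Of the siScramble-only regions, 17.0% lay near a start (13.3 to 21.6), 9.32% in exons, 54.7% in introns (49.1 to 60.1) and 19.0% outside genes (15.0 to 23.7). All merged regions had 18.7%, 10.7%, 57.9% and 12.7%. The intervals of the siDDX1 set held each of these values. In the siScramble set the interval of the share outside genes lay above the share of all regions. The difference between the one-sided sets was not tested. The intervals cover counting error only, and neighbouring regions are not independent. Of regions called in all 6, 31.4% lay near a start and 42.6% in introns. At least 1 edge lay on a restriction cut in 63.8% of siDDX1-only regions, 61.1% of siScramble-only regions and 83.2% of regions called in all 6, against 57.3% of all merged regions.

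**Figure D3:**
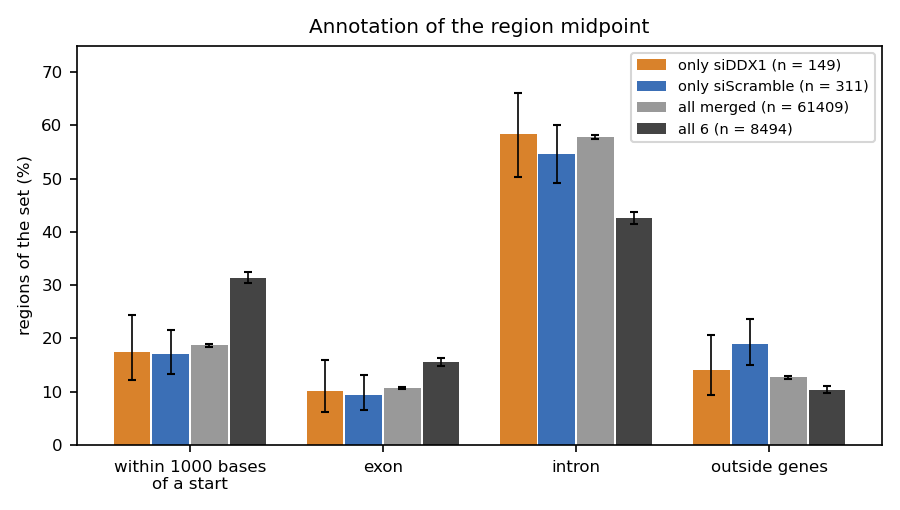
Share of regions (%, vertical axis from 0) whose midpoint lay near a start, in an exon, in an intron or outside genes, for the 4 sets of regions named in the key. Bars carry Wilson 95% intervals over regions. Introns hold the largest share in each set, siScramble-only regions lie outside genes at 19.0% against 12.7% of all merged regions, and regions called in all 6 have 31.4% near a start and 42.6% in introns.

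By chromosome, the largest gap was on chromosome 15, with 27 siScramble-only regions (8.68%) and 4 siDDX1-only regions (2.68%), against 5.34% of all merged regions. Chromosome 2 held 21 of the siDDX1-only regions (14.1%) and 26 of the siScramble-only regions (8.36%), against 8.46% of all merged regions. These shares were not tested.

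The libraries labelled siEXOSC3 were not used to choose the regions. At least 2 of 3 of them called 50 of the 149 siDDX1-only regions (33.6%, Wilson 95% interval 26.5 to 41.5) and 123 of the 311 siScramble-only regions (39.5%, 34.3 to 45.1). The share for all merged regions was 32.7%, and 96.7% for regions called in all 6. All 3 siEXOSC3 libraries called 17 siDDX1-only and 36 siScramble-only regions, and none called 49 and 76. The 2 intervals overlapped. That of the siDDX1 set held the share of all merged regions, and that of the siScramble set lay above it. At gene starts, at least 2 siEXOSC3 libraries had a peak at 11 of the 24 siDDX1-only and 18 of the 28 siScramble-only genes, against 77.5% of the genes with a start peak in any of the 6 libraries. If the peak names are right, these siEXOSC3-labelled libraries are the scramble controls. An RNase H library also called 7 siDDX1-only regions (4.70%) and 5 siScramble-only regions (1.61%), against 3.04% of all merged regions.

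**Figure D4:**
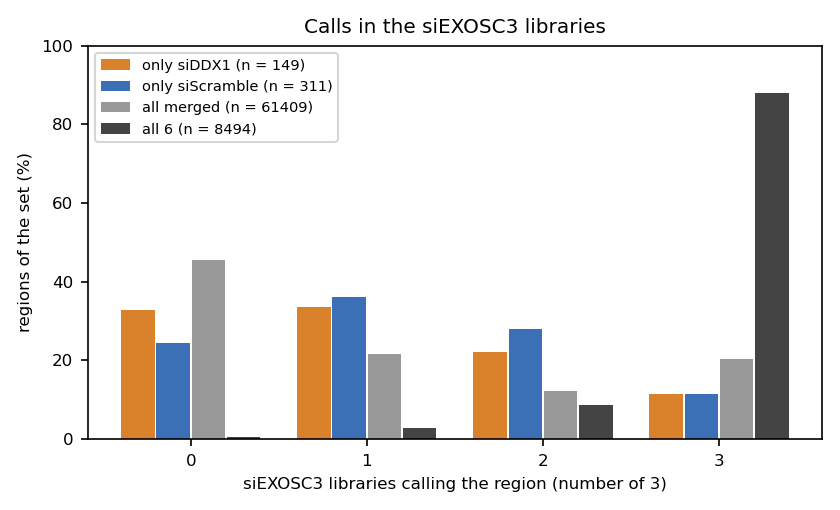
Share of each set of regions (%, vertical axis from 0) called in 0, 1, 2 or 3 of the 3 libraries labelled siEXOSC3 (horizontal axis). Of the siDDX1-only regions 32.9% and of the siScramble-only regions 24.4% were called in none, against 45.6% of all merged regions, and regions called in all 6 were called in all 3 at 88.1%.

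In regions called in all 6 libraries, the fold was compared with limma on log2 values after each library was centred on its median. No region passed an adjusted p of 0.05 in either direction, among 8494 tested (0% higher and 0% lower), and the smallest adjusted p in limma was 0.0837. An unadjusted p under 0.05 was reached by 383 regions higher in siDDX1 (4.51%) and 342 lower (4.03%), together 725 (8.54%). With a variance trend, limma called 1 region higher and 2 lower. The median difference was 0.02 on the log2 scale, the lower and upper quartiles were −0.16 and 0.19, and the median standard error was 0.22. The range ran from −1.15 to 1.22. Differences beyond 1 in size were found in 5 regions that were higher and in 3 that were lower. In 639 regions (7.52%) all 3 centred siDDX1 values lay above all 3 centred siScramble values, and in 537 (6.32%) below. Among regions outside genes 6.37% lay above and 10.1% below. At starts 8.28% lay above and 5.81% below.

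Of the regions higher in siDDX1, the smallest p belonged to the start of H2-D1, a class I histocompatibility gene (chr17:35401143-35403816). Its fold was 7.76, 10.6 and 11.4 in siScramble replicates 1, 2 and 3 and 20.2, 15.2 and 21.6 in siDDX1. All siDDX1 values lay above all siScramble values, and the log2 difference was 1.09 ± 0.21 (SE, n = 3 per group, limma adjusted p = 0.0837). H2-D1 has near-identical paralogs between which reads can be split. An exon of Zfp238, a transcriptional repressor of neuronal development (chr1:179377140-179378502), had folds of 3.11, 4.90 and 3.33 in siScramble and 6.52, 6.84 and 10.5 in siDDX1. The groups did not overlap, and the log2 difference was 1.22 ± 0.24 (SE, limma adjusted p = 0.0837). With summit fragments in place of folds, the difference was 0.55 (limma adjusted p = 0.501). The sign was not stable: once gaps of up to 1000 bases were bridged, the region that holds this one had a log2 difference of −0.18.

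Further regions higher in siDDX1 had smaller evidence. The start of Slk, a Ste20-like kinase gene, had folds of 3.61, 5.57 and 3.75 in siScramble and 10.5, 6.15 and 7.12 in siDDX1. The log2 difference was 1.01 ± 0.22 (SE, limma adjusted p = 0.124). A region at the start of Wdr76 that also overlaps Mfap1a had folds of 3.73, 5.55 and 3.37 in siScramble and 8.80, 6.76 and 6.68 in siDDX1 (limma adjusted p = 0.154). With summit fragments in place of folds, the log2 differences at Slk and Wdr76 were 0.59 and 0.71. Mfap1a is the near-identical neighbour of Mfap1b, near whose start a region was called only in siDDX1, with a siScramble peak 284 bases away. The pseudogene Rpl19-ps1 had a mean fold of 10.7 ± 1.49 in siScramble and 20.3 ± 5.15 in siDDX1 (SD, n = 3), and all 3 RNase H libraries called it. They also called the named region nearest to Gm10320. The other 4 regions lay in Hbs1l, a ribosome rescue factor, Dync1li2, a dynein subunit, Limk1, the kinase of cofilin, and Vash2, with log2 differences from 0.81 to 0.90.

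Of the regions lower in siDDX1, the smallest p belonged to an intronic region of Gm20388 (chr8:124364856-124366926), a gene model that spans several neighbouring genes. Its fold was 20.6, 24.995 and 28.0 in siScramble and 12.4, 9.99 and 9.55 in siDDX1, and the groups did not overlap. The log2 difference was −1.06 ± 0.20 (SE, limma adjusted p = 0.0837). The start of the linker histone gene Hist1h1e (chr13:23713008-23714689) had folds of 20.5, 26.0 and 30.1 in siScramble and 10.98, 9.84 and 12.3 in siDDX1. The log2 difference was −1.05 ± 0.21 (SE, limma adjusted p = 0.0837). A region at the start of Gcat, an enzyme of threonine breakdown, also overlaps H1f0, the locus of another linker histone. Its folds were 19.0, 21.8 and 24.8 in siScramble and 12.4, 8.42 and 10.98 in siDDX1.

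Pfkl, which encodes a phosphofructokinase of glycolysis, was named for 2 regions. At its start (chr10:77460492-77466691) the folds were 11.2, 15.5 and 14.8 in siScramble and 6.18, 6.15 and 6.48 in siDDX1, and the log2 difference was −0.98 ± 0.21 (SE, limma adjusted p = 0.118). In an intron (chr10:77451952-77455399) they were 12.3, 12.4 and 13.3 in siScramble and 3.44, 5.53 and 7.12 in siDDX1, and the log2 difference was −1.15 ± 0.26 (SE, limma adjusted p = 0.154). The groups did not overlap in either region. A region 3.57 kb from Ctf2 had mean folds of 29.3 ± 3.001 in siScramble and 13.5 ± 1.82 in siDDX1 (SD, n = 3). Further regions lay in or near 4932443I19Rik, Dnttip1 and Abcb9, a lysosomal peptide transporter gene, with log2 differences from −0.96 to −0.82. In each region named here the uncentred folds of the groups did not overlap, which follows largely from the choice by smallest p.

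**Figure D5:**
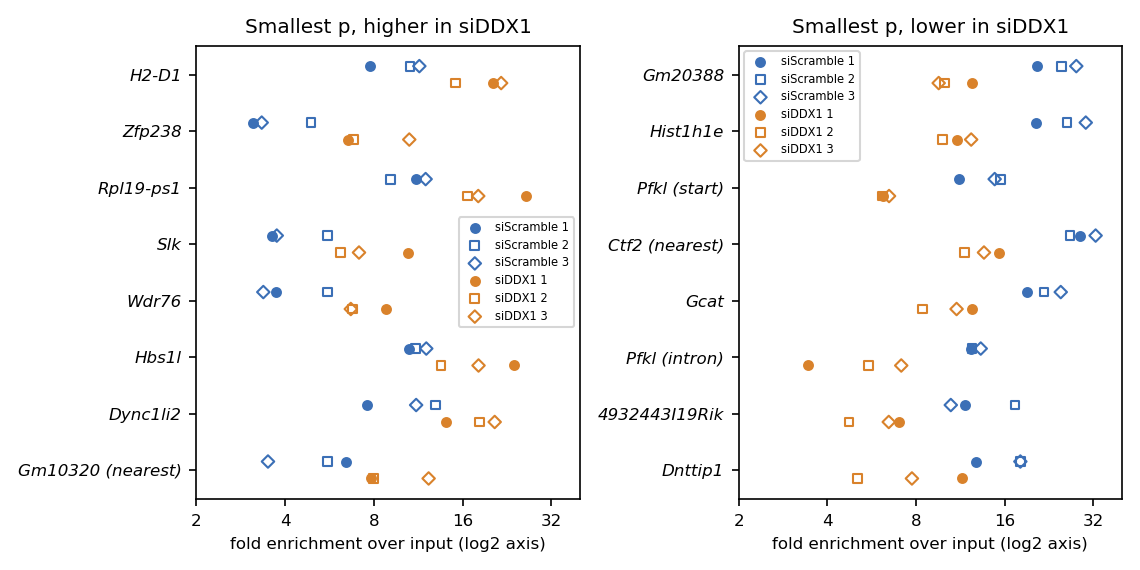
Fold enrichment over input (log2 axis) in each of the 6 libraries, for the 8 regions with the smallest limma p that were higher in siDDX1 (left) and the 8 that were lower (right). Each point is 1 library. None passed an adjusted p of 0.05. The groups do not overlap in any region shown, which follows largely from the choice by smallest p.

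No value of whole libraries passed the exact permutation test. The share of peaks near a start was 22.9% ± 2.37 in siScramble and 23.2% ± 0.83 in siDDX1 (SD, n = 3 each, exact permutation p = 0.8). The share outside genes was 12.5% ± 0.13 and 11.8% ± 0.50 (SD, n = 3 each, exact permutation p = 0.2). Mean GC content of peaks was 48.7% ± 0.54 and 48.9% ± 0.25 (SD, n = 3 each, exact permutation p = 0.7). The median fold in regions called in all 6 was 8.76 ± 0.99 and 7.93 ± 1.12 (SD, n = 3 each, exact permutation p = 0.5). The 4 two-sided tests had an adjusted p of 0.8 each, and 20 assignments cannot go below 0.1.

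Of the 8 genes of DDX1 and the tRNA ligase complex, which joins the exons of tRNAs, Fam98b and Zbtb8os had a start peak in all 6 libraries. This was 25% of the list, against 15.7% of all protein-coding genes. None of the 8 carried a one-sided region, and with 0.567% and 1.11% of all protein-coding genes carrying one, a count of 0 in so short a list tells nothing about it. Fam98b had folds of 5.86, 8.49 and 7.71 in siScramble and 7.42, 7.38 and 8.42 in siDDX1, and its log2 difference was 0.23 ± 0.21 (SE, limma adjusted p = 0.80). Zbtb8os had folds of 5.86, 9.91 and 6.03 in siScramble and 10.0, 6.15 and 7.77 in siDDX1. The groups overlapped in both genes, and their median log2 difference was 0.27. Over all 3842 protein-coding genes with a region called in all 6 at their start the median was 0.02, and 2049 of them lay above 0. This set is not that of the 3512 genes with a start peak in every library. Mphosph6, for example, had a difference though only 2 siDDX1 libraries had a peak at its start. Ddx1 itself (chr12:13226114-13256019, minus strand) had no start peak. Within the gene body it held 5, 6 and 5 peaks in siScramble and 5, 3 and 5 in siDDX1, with highest folds of 7.61, 6.42 and 9.64 and of 6.11, 6.76 and 7.14. Both sets of values overlapped. The body of Exosc3 held 1 peak in siScramble replicate 3, with a fold of 4.82, and none in siDDX1.

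Of 12 genes of the RNA exosome, 11 were matched in the annotation. Exosc7, Exosc10 and Dis3 had a start peak in all 6 libraries (27.3%, against 15.7% of all protein-coding genes), with a median log2 difference of 0.19 and 2 of 3 above 0. Exosc10, a nuclear ribonuclease of the complex, had folds of 11.1, 14.9 and 19.3 in siScramble and 20.5, 13.5 and 14.9 in siDDX1. Its region (chr4:147939064-147948641) lay inside the gene (chr4:147932538-147956510, plus strand). Dis3, a catalytic subunit of the complex, had folds of 8.79, 12.4 and 12.7 and of 13.1, 9.84 and 11.7. Of the 14 matched exosome cofactors, 2 carried a siScramble-only region, against 1.11% of all protein-coding genes, and 4 of 7 with a difference lay above 0. In Skiv2l2, the helicase MTR4, an intronic region had folds of 4.92, 4.53 and 3.85 in the siScramble libraries. In Ncbp2, a cap-binding subunit, an exonic region had folds of 4.69, 5.57 and 7.84. Mphosph6, an exosome-binding protein, had folds of 4.605, 4.52 and 5.81 in siScramble and 8.16, 4.38 and 9.31 in siDDX1 (limma adjusted p = 0.428).

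Of 23 genes for factors that resolve or prevent R-loops, 9 had a start peak in all 6 libraries (39.1%, against 15.7% of all protein-coding genes). None of the 23 carried a one-sided region. With 0.567% of all protein-coding genes carrying a siDDX1-only and 1.11% a siScramble-only region, a count of 0 in so short a list tells nothing about it. The median log2 difference over 8 of them was 0.17, with 7 above 0, against 0.02 and 2049 of 3842 over all genes. Other short lists, among them axon guidance and the RNA exosome, had medians as high. Ddx5, a DEAD-box helicase, had the highest fold of the list, with 42.2, 59.3 and 56.9 in siScramble and 65.9, 48.6 and 58.1 in siDDX1. Ddx21, a nucleolar helicase, had folds of 7.43, 12.1 and 10.2 in siScramble and 15.3, 10.1 and 12.3 in siDDX1, and its log2 difference was 0.50 ± 0.21 (SE, limma adjusted p = 0.491). The uncentred groups overlapped in both genes. The centred values, which were the ones tested, did not overlap in either, as in 7.52% of all regions called in all 6 in this direction. Rnaseh2a, the catalytic subunit of RNase H2, had folds of 8.79, 7.43 and 6.63 and of 10.5, 8.61 and 9.07. Its region (chr8:87478723-87482746) lay over the downstream end of the gene (chr8:87480509-87493666, minus strand), where a transcript start is annotated. Rnaseh1 had a start peak in 2 of 3 libraries of each group. Aqr and Blm had no start peak in any of the 6. Of 17 genes of double-strand break repair, 4 had a start peak in all 6 libraries (23.5%, against 15.7% of all protein-coding genes), with a median log2 difference of 0.01. None carried a one-sided region, which at these shares tells nothing about this list either.

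Of 23 ribosome biogenesis genes, 10 had a start peak in all 6 libraries (43.5%, against 15.7% of all protein-coding genes). Of these, 5 had a difference above 0 and 5 below, and the median was 0.04. Npm1, the nucleolar protein nucleophosmin, had folds of 31.9, 50.2 and 46.0 in siScramble and 53.5, 43.0 and 49.2 in siDDX1. Gar1, a protein of H/ACA small nucleolar RNPs, had folds of 11.1, 13.6 and 18.1 in siScramble and 10.0, 6.46 and 9.69 in siDDX1 (limma adjusted p = 0.456). A second region of Gar1 was called only in siScramble, with folds of 7.03, 4.95 and 5.42. Nhp2, of the same RNPs, had folds of 15.5, 19.5 and 14.1 in siScramble and 10.1, 9.84 and 11.7 in siDDX1 (limma adjusted p = 0.555). The groups did not overlap in Gar1 and Nhp2, as in 6.32% of all regions called in all 6 in this direction. Both had an unadjusted limma p under 0.05, which was a ground for naming list genes. Ubtf, a transcription factor of RNA polymerase I, had the difference largest in size of the list and went the other way, with folds of 12.7, 21.8 and 17.7 in siScramble and 43.6, 12.2 and 21.9 in siDDX1. The groups overlapped, and its log2 difference was 0.57 ± 0.27 (SE, limma adjusted p = 0.576).

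Of the lists, stress genes had the highest share with a start peak in all 6 libraries, 15 of 21 genes (71.4%, against 15.7% of all protein-coding genes). Their median log2 difference was 0.06. None carried a one-sided region, which tells little beside 0.567% (siDDX1-only) and 1.11% (siScramble-only) of all protein-coding genes. Atf4, a transcription factor of the stress response, had folds of 66.6, 86.4 and 73.0 in siScramble and 93.5, 59.4 and 68.3 in siDDX1. Hsp90aa1, a chaperone gene, had folds of 10.5, 14.2 and 11.99 and of 16.1, 13.5 and 15.5, with a log2 difference of 0.45 ± 0.20 (SE, limma adjusted p = 0.549). Hspa9, a mitochondrial chaperone gene, went the other way, with 24.6, 35.9 and 32.5 in siScramble and 28.4, 14.1 and 20.7 in siDDX1, and −0.45 ± 0.21 (SE, limma adjusted p = 0.570). The Hsp90aa1 region lay inside its gene and the Hspa9 region over the downstream end of Hspa9, so neither lay at the upstream end. Of 31 axon guidance genes, 8 had a start peak in all 6 libraries (25.8%, against the same 15.7%). Of 7 with a difference, 5 were above 0 and 2 below, and the median was 0.18. Nrp2, a semaphorin coreceptor, had the lowest of these differences, with folds of 8.35, 12.4 and 13.2 in siScramble and 7.85, 5.26 and 6.46 in siDDX1. The groups did not overlap, as in 6.32% of all regions called in all 6 in this direction. The log2 difference of Nrp2 was −0.64 ± 0.21 (SE, limma adjusted p = 0.370). Slit3 was the axon guidance gene with a one-sided region (1 of 31, siScramble-only, against 1.11% of all protein-coding genes).

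Ints6, Celf4 and Bambi were followed as single genes. Ints6, an Integrator subunit, had a highest fold of 14.1, 16.9 and 13.3 in siScramble and of 14.1, 9.07 and 8.02 in siDDX1. The groups overlapped, and both lay below the libraries labelled siEXOSC3, with 26.1, 25.1 and 28.3. Celf4, an RNA-binding protein of neurons, held 9, 22 and 24 peaks in siScramble, 31, 18 and 23 in siDDX1 and 3, 5 and 18 in the libraries labelled siEXOSC3. Its 3 siDDX1-only regions were all intronic, with mean folds of 5.23 ± 0.89, 4.25 ± 0.69 and 4.04 ± 0.66 (SD, n = 3). The nearest siScramble peaks were 6676, 988 and 5 bases away. Bambi, a pseudoreceptor of TGF-beta signalling, held 1 peak in siScramble replicate 3, with a fold of 4.82, and none in the siDDX1 libraries. The libraries labelled siEXOSC3 held 2, 1 and 3 peaks there, with highest folds of 4.97, 6.73 and 8.36.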

How the data were processed

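Narrow peak lists of 9 untreated and 3 RNase H-digested DRIP libraries were read. Per the study's methods and the submitters' processing notes, the authors aligned reads to mm9 with Bowtie2 2.4.4, sorted them with SAMtools, and called peaks per library against an input with MACS2 2.2.6. The deposited lists give fold enrichment as a linear ratio and −log10 p and −log10 q per summit, as the authors' caller wrote them. The deposited summit offset (another column) placed windows, and the display score of the deposited lists was not used. The authors tested recounted reads with DESeq2; counts were not used here.

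Here, overlapping peaks of the 6 libraries were merged, and a region took the highest fold per library. log2 folds, centred per library, were tested with limma 3.58.1 (R 4.3.3) with Benjamini-Hochberg adjustment over 8494 regions. Genes came from GENCODE M1 on the same build. Summit fragments were recovered from fold and p within 0.005 plus 0.0005 times the −log10 p. Code was tested on simulated data. Python 3.11.15 was used.

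Named were the 12 one-sided regions per side with the highest lowest fold, the 10 regions per direction with the smallest p, list genes with a one-sided region, up to 4 per list with the highest fold, and Ddx1, Exosc3, Ints6, Celf4 and Bambi. List genes with an unadjusted p under 0.05 were added after their values were seen. A few genes that these rules name are not reported here. Members and lists were chosen with earlier results of these data known. Replicates came from separate plates per the study's methods. Intervals cover counting error only.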

Additional observations from a re-analysis of the deposited data

How the results depend on the processing

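The counts of one-sided regions moved with the processing. With gaps of up to 1000 bases bridged, 156 regions were called only in siScramble, against 311, and 24.8% of the siDDX1-only and 34.0% of the siScramble-only regions were called in at least 2 siEXOSC3-labelled libraries, against 33.6% and 39.5%. At a −log10 q of at least 5, 76 regions were called only in siDDX1, against 149, and 5651 in all 6, against 8494, and those shares were 60.5% and 66.8%. With the same number of top peaks kept in each list they were 50.2% and 57.9%. The shares under these alternatives were added after seeing the data. The share over all merged regions under the same settings is not given here, so the shifts cannot be read as a trait of the one-sided regions. When a call had to cover at least 50% of a region, 3103 regions were called in all 6. With starts counted within 2000 bases, 30.2% of siDDX1-only and 25.1% of siScramble-only regions lay near one. Leaving out 1 library at a time gave 362 to 2187 siScramble-only and 179 to 1070 siDDX1-only regions. The siScramble count moved by over 1.5 times without any 1 siScramble library and without siDDX1 replicate 1 (2187, 731, 590 and 1328). The siDDX1 count did so without any 1 siDDX1 library (348, 1070 and 645) and without siScramble replicates 2 and 3 (314 and 448). Leaving out a library relaxes the rule of both sets, so a rise of the counts follows in large part from the rule.

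In limma, where no region called in all 6 passed an adjusted p of 0.05, a variance trend called 1 higher and 2 lower, a −log10 q of at least 5 called 2 and 4, an equal number of peaks 1 and 2, and no centring 0 and 3. Leaving out 1 library called 0 to 1 higher and 0 lower; the 1 was Zfp238, without siDDX1 replicate 1 (1.44, limma adjusted p = 0.0234). Bridging gaps turned Zfp238 to −0.18; the cause was not tested. Replicate numbers are shared between the titles, and same-numbered libraries deviated together by r = 0.07, −0.04 and 0.05, so the numbers were not taken to pair them; with the replicate block 0 regions were called in either direction. Summit fragments in place of folds, an alternative added after seeing the data, also called 0.

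The difference in the share near a start, 0.26 percentage points, turned to −0.14 with equal peak numbers and ran from −0.74 to 1.57 when 1 library was left out. The difference in GC content ran from −0.0147 to 0.49 points. Median summits of 9 to 12 fragments limit what a single peak can show.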
